A study of Mus musculus with 33 samples.

Results

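The nuclear genes for the subunits of the mitochondrial respiratory chain were followed through mouse livers in which MYC, a transcription factor that drives growth, and a stabilised β-catenin were switched on. The genes were chosen by symbol alone: names that begin Nduf followed by a, b, c, s or v and a digit, Sdha to Sdhd, and names that begin Uqcr, Cox4 to Cox8 or Atp5, with pseudogene symbols left out. This gave 84 of the 21671 genes of the table, of which 37 belong by symbol to complex I, 4 to complex II, 8 to complex III, 18 to complex IV and 17 to complex V. The 13 subunits encoded by mitochondrial DNA were not analysed here.

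The respiratory chain carries electrons from NADH and succinate to oxygen and uses the energy released to pump protons across the inner mitochondrial membrane. Complex I (the Nduf genes) oxidises NADH, complex II (Sdha to Sdhd) oxidises succinate and is also an enzyme of the citric acid cycle, complex III (Uqcr genes) passes electrons to cytochrome c, complex IV (Cox genes) reduces oxygen, and complex V (Atp5 genes) makes ATP. Hepatocytes are rich in mitochondria, and several complex IV subunits exist as alternative isoforms that are typical of muscle, brown fat, lung or testis. Ndufa4 carries a complex I name but is now counted with complex IV, and Atp5s, Atp5sl and Cox7a2l encode associated factors rather than classical subunits.

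In the short-term arm, C57BL/6 mice aged 6 to 8 weeks received 1e+11 particles of AAV8-TBG-CRE. This vector carries the recombinase Cre under TBG, a promoter active in hepatocytes. The livers were collected 4 days later. The mice were wild type (WT, 5 livers), b-cat Ex3 (an allele from which Cre removes exon 3, which stabilises β-catenin; Ex3, 5 livers), R26-lslMYC (a MYC transgene behind a stop that Cre removes; MYC, 5 livers) or R26-lslMYC/b-cat Ex3 (MYC+Ex3, 5 livers). All 4 groups received the virus. In the tumour arm, liver nodules came from Alb-CreERT2/R26-lslMYC mice (3 MYC tumours) and Alb-CreERT2/R26-lslMYC/b-catEx3 mice (3 MYC+Ex3 tumours). In these mice Cre is made in cells that express albumin and is activated by tamoxifen. The controls were 7 wild-type livers taken 4 days after 4-hydroxytamoxifen (4-OHT). The age of the tumours and whether those of a group came from separate mice are not given in the labels, so the p-values measure only the spread between these samples. Whole tissue was sequenced as total RNA, and fewer cells of a type and less RNA per cell cannot be told apart.

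Levels are given in RPKM, which divides the reads of a gene by its length in kilobases and by a total for the library. Reads in genes numbered 3.75 to 7.31 M in the AAV8 livers and 6.65 to 9.82 M in the tumour arm. The totals behind RPKM were 23.9 to 38.8 M in the tumour arm but matched the reads in genes in the AAV8 livers, so levels are compared only within an arm. Axin2, a β-catenin target, lay at 10.6 to 24.9 RPKM in the Ex3 livers and at 2.73 to 4.3 in WT, and Ncl, a MYC target, at 41.2 to 98.3 in the MYC livers and at 15.3 to 24.2 in WT; neither pair of ranges overlapped. The 6 hepatocyte markers summed to 806 to 1380 RPKM in the AAV8 livers and to 157 to 253 in the tumour arm, with none at 0 in any group. Keratins of skin (Krt5, Krt14 and Krt17) summed to at least 1 RPKM in 10 of the 20 AAV8 livers, 3 of them WT, 3 Ex3, 1 MYC and 3 MYC+Ex3. MYC replicate 5 held both Xist (86.1 RPKM) and Ddx3y (4.74 RPKM), genes otherwise read in females and in males.

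By RPKM the subunits are among the most abundant transcripts of these livers. The scale has a limit at its top, however. The highest gene of each library stood at 1474 to 1810 reads per kilobase, although the totals differed widely. Albumin (Alb) stood at only 244 to 303 RPKM in the WT livers. Differences between abundant genes may therefore be understated, and how far was not tested. In WT livers Atp5b, the catalytic β subunit of the ATP synthase, stood at 192.8 ± 11.3 RPKM (SD, n = 5), Cox4i1, the liver form of a core complex IV subunit, at 170.9 ± 10.7, and Sdhd, a membrane anchor of complex II, at 169.4 ± 9.60. Ndufs1, the large iron-sulfur subunit of complex I, stood at 53.6 ± 4.39 RPKM. By complex, the median over subunits, averaged over the 5 WT livers, was 81.4 ± 6.81 RPKM for complex I, 115.0 ± 6.33 for complex II, 120.4 ± 10.8 for complex III, 81.4 ± 10.6 for complex IV and 110.4 ± 10.0 for complex V. The order was much the same in the 4-OHT livers. There complexes II and III had the highest medians (23.4 ± 2.92 and 22.1 ± 3.54 RPKM, n = 7) and complex IV the lowest (14.3 ± 2.43). In both arms the spread of complexes II and III overlapped. The complex IV median was taken over all 18 genes. Among them Cox4i2, Cox6a2, Cox6b2, Cox7a1, Cox7b2, Cox8b and Cox8c had means of at most 4.92 RPKM in WT livers. They lower that median, so the low place of complex IV does not describe its well-expressed subunits. Of the 84 genes, 79 passed the filter for testing in each arm (RPKM of at least 1 in at least 3 libraries of the fit). Cox7b2 and Cox8c are listed at 0 in every library, and Cox4i2, Cox6a2 and Cox8b did not reach the filter.

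At 4 days after activation few respiratory chain genes departed from their WT levels. In MYC and in MYC+Ex3 livers the called subunits were Cox6b2 and, with a small rise, Ndufa8, and the subunits more than 0.5 from WT on the log2 scale were Cox6b2 and, below WT without a call, Ndufa4l2. Changes were tested with limma on log2(RPKM + 1), two-sided, with Benjamini-Hochberg adjustment over all 13688 genes tested and a call at an adjusted p under 0.05. In MYC livers 2 of the 79 subunits were called higher than in WT and 0 lower, where 16.9% of all genes tested were called higher and 5.36% lower. The median log2 change of the 79 was 0.004 against 0.069 for all genes, 43 of them lay above 0, and 77 lay within 0.5 of 0. After rescaling by the median ratio, the medians were -0.099 and -0.016. In MYC+Ex3 livers 2 were called higher than in WT and 0 lower (all genes: 17.9% and 6.18%), with a median of 0.027 against 0.049. The direction of that median differed between libraries with and without skin keratins. It was -0.198 (1 higher, 2 lower) in the libraries without them and 0.169 (5 higher, 0 lower) in those with them. For all genes the medians were 0.006 (1883 higher, 1126 lower of 13346) without keratins and 0.090 (1988 and 465 of 13161) with them. The libraries with keratins had totals of 3.75 to 5.10 M. Those without had 5.26 to 7.32 M, except MYC replicate 3 (4.39 M). Keratins and library total therefore cannot be told apart here. Against Ex3 livers, MYC+Ex3 livers had 1 subunit called higher and 0 lower (all genes: 16.4% and 4.7%).

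The Ex3 allele alone left the chain without a called change. In Ex3 against WT livers limma called 0 of the 79 subunits in either direction, with 1 at an unadjusted p under 0.05, where 0.132% of all genes were called higher and 0.0% lower. When Ex3 was added to MYC, 1 subunit (Cox6b2) was called higher and 0 lower (all genes: 0.19% and 0.0%). A term for whether MYC acted differently with and without the Ex3 allele (their interaction) called 0 subunits, with 1 (Cox6b2) at an unadjusted p under 0.05, and 0.0% of all genes tested.

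**Figure D1:**
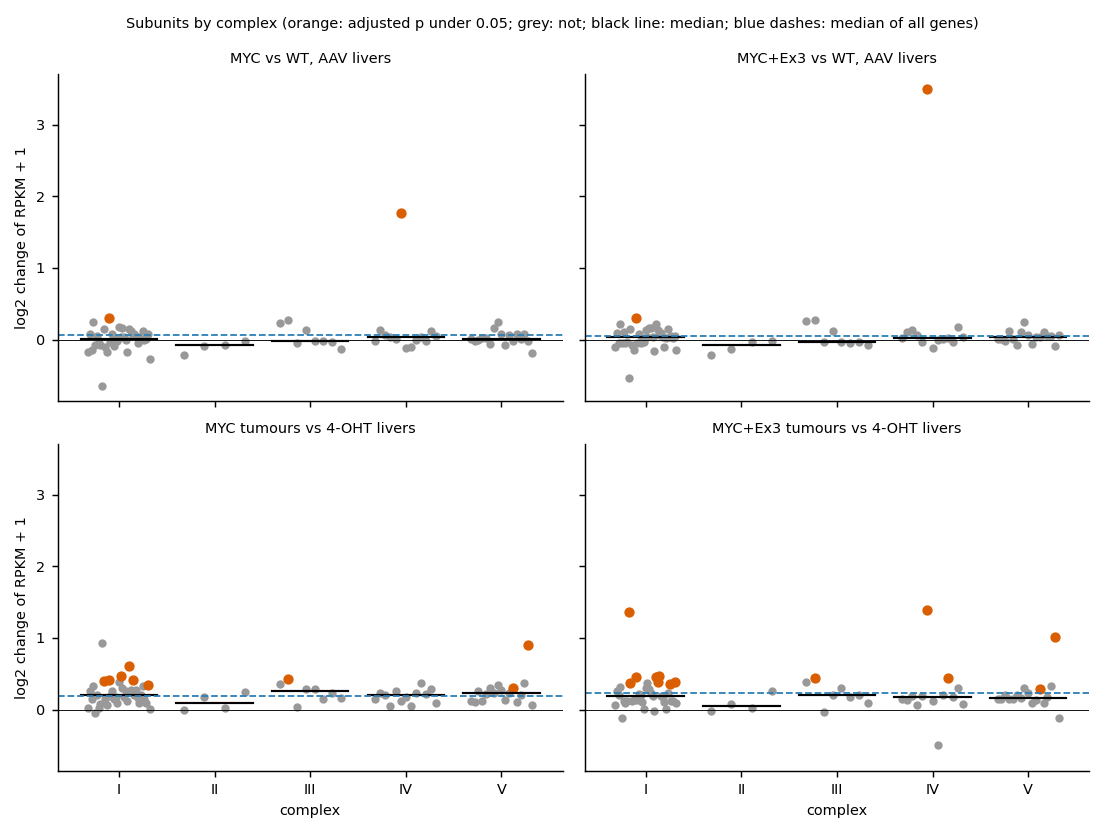
Log2 change of RPKM + 1 (y axis) of the 79 tested subunits by complex (x axis) in MYC and MYC+Ex3 livers against WT (top) and in MYC and MYC+Ex3 tumours against 4-OHT livers (bottom); each point is a gene, orange where the adjusted p is under 0.05, the black lines are the medians by complex and the blue dashes the median of all genes. In the livers 77 of 79 points lie within 0.5 of 0, and the complex IV gene at 1.76 and 3.50 is Cox6b2.

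By complex, the medians in MYC against WT livers were 0.011 for complex I, -0.082 for complex II, -0.019 for complex III, 0.035 for complex IV and 0.015 for complex V. The 4 complex II genes were all below 0 in MYC and in MYC+Ex3 livers, and in each the furthest was Sdha, the flavoprotein that oxidises succinate. Sdha stood at 106.9, 128.7, 98.9, 117.9 and 118.3 RPKM in the WT livers, at 96.2, 103.8, 107.0, 88.0 and 93.6 in the MYC livers and at 90.8, 88.2, 105.8, 98.3 and 106.3 in the MYC+Ex3 livers. The groups overlapped, and the log2 changes of -0.22 and -0.22 did not pass the test (limma adjusted p 0.0727 and 0.0719). With that rescaling Sdha was called lower in MYC livers, so the split of 2 higher and 0 lower became 1 and 1. All genes then split into 1882 higher and 1302 lower of 13688.

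No other catalytic subunit was called in the livers, and 4 that stand for complexes I, IV and V are given here. Atp5b stood at 192.8 ± 11.3 RPKM in WT, 191.2 ± 27.1 in MYC and 195.5 ± 29.3 in MYC+Ex3 livers, and Atp5a1, the α subunit of the ATP synthase, at 148.7 ± 5.36, 150.7 ± 16.1 and 150.9 ± 17.8 (SD, n = 5 each). Cox4i1 stood at 170.9 ± 10.7, 169.8 ± 21.3 and 175.1 ± 32.7 RPKM, and Ndufv1, which binds NADH, at 123.5 ± 12.2, 124.4 ± 12.6 and 125.4 ± 4.69. The log2 changes of these 4 genes lay between -0.02 and 0.03 with adjusted p of 0.849 or more. Uqcrc1, a core subunit of complex III, moved further without a call, from 105.7 ± 8.14 RPKM in WT to 116.4 ± 9.23 in MYC and 115.2 ± 3.96 in MYC+Ex3 livers (log2 changes 0.14 and 0.13, adjusted p 0.206 and 0.242).

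Ndufa8, an accessory subunit of complex I that sits on the side of the intermembrane space, was the called complex I gene. It stood at 71.6, 64.4, 71.4, 66.0 and 56.5 RPKM in the WT livers, at 84.7, 84.5, 73.3, 91.2 and 73.0 in the MYC livers and at 81.3, 82.1, 86.9, 78.3 and 77.3 in the MYC+Ex3 livers. Every MYC and MYC+Ex3 liver lay above every WT liver, while the Ex3 livers, at 71.1 to 85.2 RPKM, overlapped both. The log2 change was 0.30 ± 0.09 (SE, adjusted p 0.0172) in MYC and 0.30 ± 0.09 (adjusted p 0.0154) in MYC+Ex3 livers, and both comparisons share the WT livers. Without WT replicate 5, which had the lowest value, the adjusted p rose to 0.0556 and 0.0523, and both calls were also lost after rescaling and in the libraries without skin keratins. In MYC livers the call was further lost with only the groups compared and with a depth term and rescaling together.

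Cox6b2 rose in MYC livers and rose further when Ex3 was added, while no change of its ubiquitous counterpart Cox6b1 was called. Both encode the 6B subunit of cytochrome c oxidase, which lies on the outer face of the complex where cytochrome c docks, and Cox6b2 is the isoform known from testis. Cox6b2 was at 0, 0.372, 0.819, 0.681 and 0.378 RPKM in the WT livers and at 0, 0.547, 0.373, 1.71 and 0 in the Ex3 livers. It was at 4.41, 4.36, 4.15, 4.37 and 2.23 RPKM in the MYC livers and at 17.4, 23.5, 15.4, 9.42 and 13.1 in the MYC+Ex3 livers. The WT and Ex3 livers overlapped, all MYC livers lay above them, and all MYC+Ex3 livers lay above all MYC livers.

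On the log2(RPKM + 1) scale, which understates changes of low genes, Cox6b2 differed by 1.76 ± 0.27 between MYC and WT livers (SE, limma adjusted p 7.11e-05) and by 3.50 ± 0.27 between MYC+Ex3 and WT livers (adjusted p 1.17e-07). The step from MYC to MYC+Ex3 was 1.74 ± 0.27 (adjusted p 0.0058), whereas Ex3 alone gave -0.00 against WT (adjusted p 1.0). The interaction was 1.74 ± 0.38 and did not pass after adjustment over all genes (unadjusted p 0.000155, adjusted p 0.9999). The step from MYC to MYC+Ex3 also did not pass with a pseudocount of 0.1 (adjusted p 0.928) or in the livers without skin keratins; the other MYC calls of Cox6b2 held in all 10 or 11 alternatives.

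The counts behind these values are small. Summed over 5 livers, Cox6b2 had 7 reads in WT, 8 in Ex3, 62 in MYC and 275 in MYC+Ex3. Per library total, the ratio to WT was 8.26 in MYC (95% exact interval 3.78 to 21.4) and 35.9 in MYC+Ex3 (17.2 to 90.0), and MYC+Ex3 exceeded MYC by 4.34-fold (3.28 to 5.81); these intervals cover counting error only. Cox6b1 stood at 118.8 ± 4.54 RPKM in WT, 124.2 ± 12.4 in Ex3, 120.5 ± 19.6 in MYC and 117.2 ± 17.5 in MYC+Ex3 livers. The share of Cox6b2 in the RPKM of the pair was therefore 0.383% ± 0.278 in WT, 0.423% ± 0.553 in Ex3, 3.11% ± 0.499 in MYC and 12.1% ± 4.90 in MYC+Ex3 livers. The 9 male germ cell markers summed to 2.91 to 14.7 RPKM in WT, 4.81 to 10.9 in MYC and 2.61 to 8.19 in MYC+Ex3. Most of each sum came from Sycp3. It made up 10.6 of 11.2 RPKM in WT replicate 5, a liver with Xist, and 10.2 of 10.9 in MYC replicate 4. The highest value of any other marker was 0.514 RPKM (Ldhc in WT replicate 2), and Prm1, Prm2 and Cyct were at 0 in every AAV8 liver. The part of germ cells in the Cox6b2 values was not tested. MYC replicate 5, which holds the lowest MYC value of Cox6b2 and both sex markers, also held striated muscle markers (summed 14.2 RPKM); without it the log2 change of Cox6b2 in MYC livers was 1.91.

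**Figure D2:**
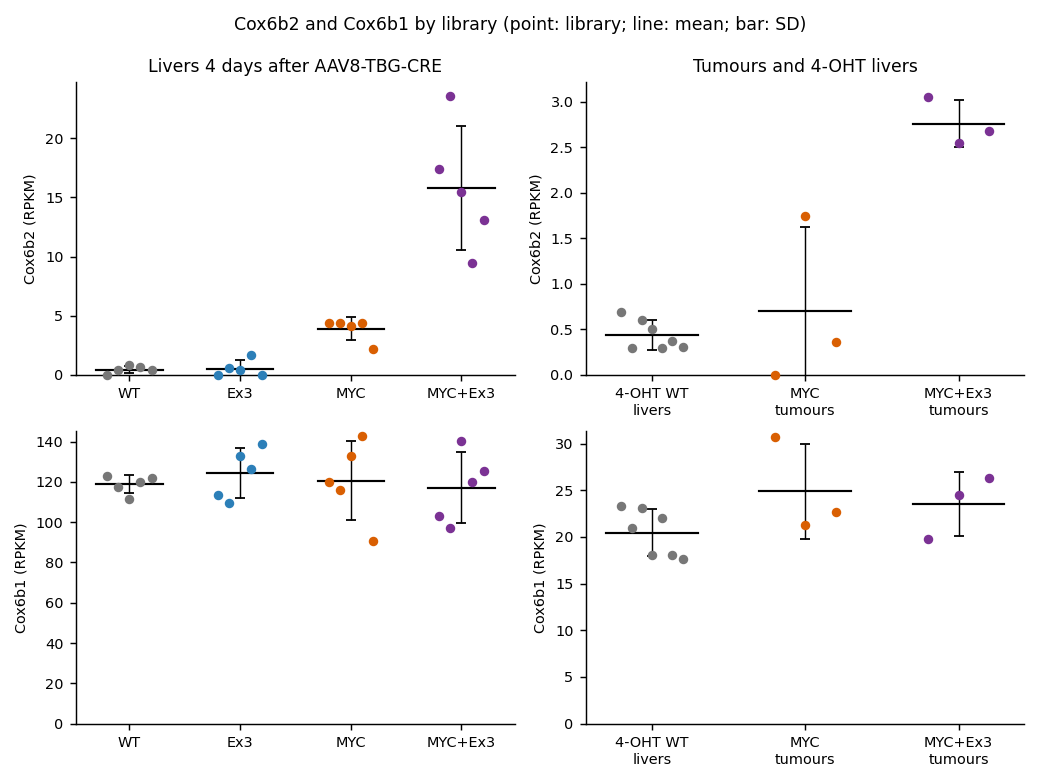
RPKM (y axis, from 0) of Cox6b2 (top) and Cox6b1 (bottom) in each library, by group (x axis), in the AAV8-TBG-CRE livers (left) and in the tumours and 4-OHT livers (right); points are libraries, lines means and bars SD. Cox6b2 separates MYC (2.23 to 4.41 RPKM) and MYC+Ex3 livers (9.42 to 23.5) from WT and Ex3 (0 to 1.71), while the groups of Cox6b1 overlap.

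The start regions of the pair are shown because one gene moved and the other did not. Each is the 250 bases before the transcription start from RefSeq on GRCm38.p6, minus strand, chr7:4753095-4753344 for Cox6b2 and chr7:30626115-30626364 for Cox6b1, with capitals for CCAAT boxes (CCAAT or, on the other strand, ATTGG) and for the ETS core (CCGGAAG or CTTCCGG).
Cox6b2: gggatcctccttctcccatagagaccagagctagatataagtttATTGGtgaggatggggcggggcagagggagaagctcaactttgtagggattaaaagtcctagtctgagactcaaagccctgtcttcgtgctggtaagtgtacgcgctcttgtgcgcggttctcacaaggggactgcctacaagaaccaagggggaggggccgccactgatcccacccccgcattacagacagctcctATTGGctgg
Cox6b1: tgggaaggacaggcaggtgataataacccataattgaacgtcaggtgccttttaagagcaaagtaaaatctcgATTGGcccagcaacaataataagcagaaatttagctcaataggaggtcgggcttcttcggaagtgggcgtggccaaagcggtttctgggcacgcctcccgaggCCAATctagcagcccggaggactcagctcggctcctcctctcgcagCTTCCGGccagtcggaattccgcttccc
Both windows hold 2 CCAAT boxes, and that of Cox6b1 also holds an ETS core. Neither holds the canonical E-box CACGTG, the palindrome that MYC binds with MAX, or the NRF1 core (GCATGCG or CGCATGC); this says only that these letters are not in these windows. Promoters were matched for 67 of the 84 genes. The E-box was in 8.96% of them against 6.86% of 27025 promoters, the NRF1 core in 13.4% against 3.43%, the ETS core in 17.9% against 7.83% and the CCAAT box in 44.8% against 37.5%. NRF1 and the ETS factor GABP are known regulators of respiratory genes, and the 9 subunits with the NRF1 core include Ndufa8, Sdhb and Cox6a1.

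The tumours had more called subunits than the short-term livers, though fewer than the share of all genes, and no subunit was called lower. In MYC tumours 9 of the 79 subunits were called higher than in 4-OHT livers and 0 lower, where 36.2% of the 11854 genes tested were called higher and 13.7% lower. In MYC+Ex3 tumours 13 were called higher and 0 lower (all genes: 42.3% and 18.4%); both comparisons share the 4-OHT livers. Their median log2 changes were 0.207 and 0.178, against 0.188 and 0.232 for all genes, and 77 and 73 of the 79 lay above 0; after rescaling, which brings the median of all genes to 0.013 and 0.049, those of the subunits became -0.004 and -0.033. By complex the medians in MYC tumours were 0.200 for I, 0.098 for II, 0.255 for III, 0.208 for IV and 0.228 for V, and in MYC+Ex3 tumours 0.192, 0.053, 0.203, 0.178 and 0.159. By symbol the calls fell on complex I (6 and 8 of 37 genes tested, Ndufa4l2 among the 8), III (1 and 1 of 8), IV (0 and 2 of 13) and V (2 and 2 of 17). None of the 4 complex II genes was called. No test between complexes was made, and with so few genes these counts do not set one complex apart. Sdha stood at 23.6 ± 2.86 RPKM in 4-OHT livers (n = 7), 23.5 ± 2.80 in MYC and 23.3 ± 2.32 in MYC+Ex3 tumours (n = 3 each). Markers of other cell types moved with these groups: 6 macrophage markers summed to 25.3 to 93.1 RPKM in the tumours and 89.6 to 117 in the 4-OHT livers, and the erythroid markers to 64.0 to 79.1 in the MYC+Ex3 tumours, 10.4, 61.6 and 14.5 in the MYC tumours and 13.2 to 30.6 in the 4-OHT livers, with no macrophage marker at 0. Their part in the subunit values was not tested.

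Atp5s, which encodes factor B, a coupling factor associated with the ATP synthase, was the called subunit gene of complex V with the largest rise. It lay between 0.89 and 1.67 RPKM (median 1.14) in the 7 4-OHT livers, at 2.62, 3.20 and 3.78 in the MYC tumours and at 2.85, 3.89 and 3.90 in the MYC+Ex3 tumours. All 6 tumours lay above all 7 control livers, and the tumour groups overlapped. The log2 changes were 0.90 ± 0.13 (adjusted p 0.000115) and 1.02 ± 0.13 (adjusted p 2.08e-05), and both calls held under the 9 alternatives in which the gene was tested. In the short-term livers Atp5s did not pass the test in MYC (log2 change -0.02, adjusted p 0.966) or in MYC+Ex3 (-0.09, adjusted p 0.811).

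Ndufs1, the large iron-sulfur subunit of complex I, lay between 7.78 and 11.4 RPKM (median 9.83) in the 4-OHT livers. It stood at 13.9, 12.03 and 12.9 RPKM in the MYC tumours and at 12.2, 13.6 and 14.9 in the MYC+Ex3 tumours, so that all tumours lay above all controls. The log2 changes were 0.41 ± 0.13 (adjusted p 0.0156) and 0.47 ± 0.13 (adjusted p 0.00525); the second held under all 10 alternatives, and the first was lost with rescaling, against the controls titled S14 alone, and without MYC tumour replicate 1. Its exons overlap a gene on the opposite strand, and whether reads were counted by strand is not given in the sources used here.

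**Figure D3:**
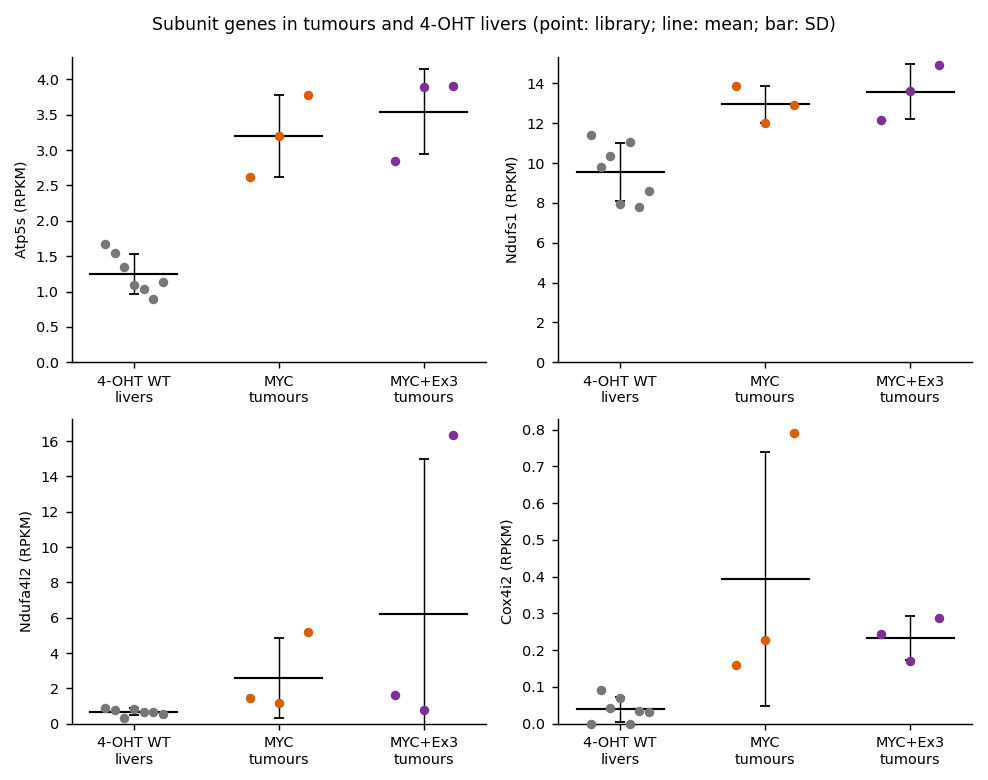
RPKM (y axes, from 0) of Atp5s, Ndufs1, Ndufa4l2 and Cox4i2 in each library of the tumour arm, by group (x axis); points are libraries, lines means and bars SD. For Atp5s, Ndufs1 and Cox4i2 the 6 tumours lie above the 7 4-OHT livers; for Ndufa4l2 a single MYC+Ex3 tumour stands at 16.3 RPKM.

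A few further complex I and III genes were called in both kinds of tumour with smaller rises. Ndufc1, a membrane subunit of complex I, changed by 0.61 ± 0.17 (adjusted p 0.0107) and 0.46 ± 0.17 (adjusted p 0.035), and Ndufv2, which carries an iron-sulfur cluster beside Ndufv1, by 0.35 ± 0.13 and 0.38 ± 0.13. Ndufa8 changed by 0.41 ± 0.16 (adjusted p 0.0477) and 0.45 ± 0.16 (adjusted p 0.0257), and Uqcr11, a small subunit of complex III, by 0.42 ± 0.14 (adjusted p 0.0247) and 0.44 ± 0.14 (adjusted p 0.0157). These rises were carried in part by MYC tumour replicate 1 and MYC+Ex3 tumour replicate 3: without the first, none of the 4 passed in MYC tumours, and without the second, or without MYC+Ex3 tumour replicate 2, none of the 4 passed in MYC+Ex3 tumours. Uqcr11, Ndufv2 and Ndufa8 in MYC tumours also failed without MYC tumour replicate 3, after rescaling and with a sex term. In MYC+Ex3 tumours all 4 failed after rescaling. Against the controls titled S14 alone all 4 failed in both kinds of tumour. Leaving out single 4-OHT livers (replicates 4, 6 and 7) ended the calls of Ndufv2 and Ndufa8 in MYC tumours and of Ndufc1 in MYC+Ex3 tumours; replicate 3 did so for Ndufv2 and Ndufa8 in MYC tumours, and for Ndufa8 so did 4-OHT replicate 2 and MYC+Ex3 tumour replicates 2 and 3. Atp5j2 and Ndufa5 were also called in both, and Ndufb5 and Ndufc2 in one kind each; these 4 are named after their values were seen. In MYC+Ex3 tumours the calls further included Ndufs7 (0.35 ± 0.13, adjusted p 0.0313), which carries the last cluster before ubiquinone. Cox7a2l (0.44 ± 0.16, adjusted p 0.0241), a factor of supercomplex assembly, was also called there. Both were lost without MYC+Ex3 tumour replicate 2 or 3, after rescaling and against the S14 controls alone. Ndufs7 was also lost without 4-OHT replicate 4, 6 or 7.

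The level of the subunits in a library moved with the library total. Over libraries of the same group and the same keratin class or control set, the reads of the 76 AAV-arm subunits with enough reads rose by a median of 0.471 on the log2 scale for each doubling of the total (19 libraries), and those of the 77 in the tumour arm by 0.209, (13 libraries), where genes under 0.1 reads per base rose by 1.44 and 1.28. The subunits had a median of 0.527 and 0.627 reads per base of gene in the 2 arms. Their RPKM was therefore lower in libraries with larger totals, as in the 4-OHT livers, where the median over the 84 genes was 19.1 to 21.5 RPKM in the 4 livers with totals of 28.1 to 31.3 M and 14.2 to 15.2 in the 3 with 35.4 to 38.3 M. The tumours stood at 21.6 and 23.4 for totals of 29.9 and 30.9 M, and at 18.2 to 20.2 for 36.3 to 38.8 M, above the 4-OHT livers of like totals in each range. The sixth, MYC tumour replicate 1, stood at 24.2 with a total of 23.9 M, for which there was no 4-OHT liver of like total; without it 1 subunit rather than 9 was called in MYC tumours. At totals of 35.4 to 38.8 M, reads in genes were 9.30 to 9.82 M in tumours and 7.86 to 8.59 M in 4-OHT livers. At 28.1 to 31.3 M they were 7.86 and 9.14 M in tumours and 6.65 to 8.31 M in 4-OHT livers. More reads in genes at a like total raise the RPKM of genes at large, so this comparison does not single out the subunits. A term for the total, added after the data were seen, raised the called subunits to 36 of 79 in each tumour group, all higher. With it 4738 and 5383 of all 11854 genes were called higher in MYC and MYC+Ex3 tumours (either direction: 56.3% and 66.1%). The share of subunits called higher was thus near that of all genes. With rescaling in addition the subunits split into 11 higher and 9 lower in MYC tumours, and 10 higher and 11 lower in MYC+Ex3 tumours. All genes then split into 3639 higher and 3261 lower, and 4328 higher and 3591 lower.

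**Figure D4:**
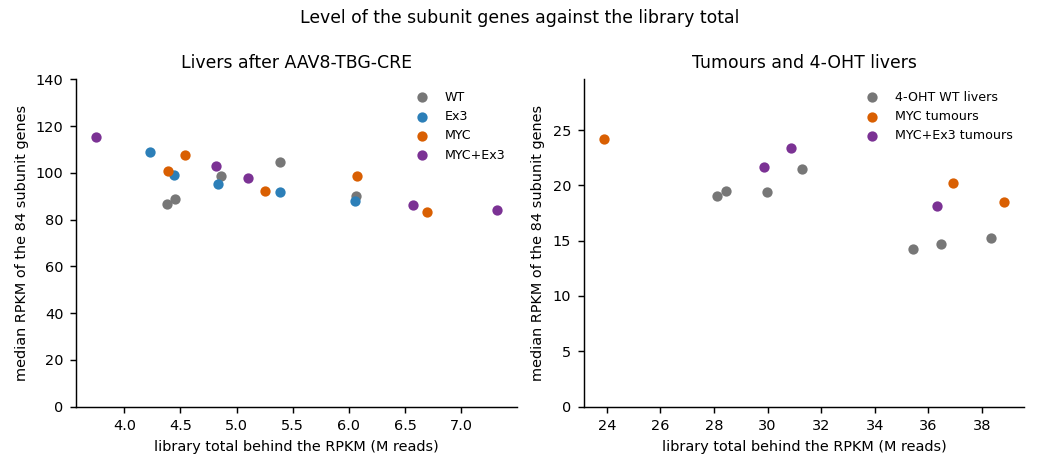
Median RPKM of the 84 subunit genes (y axis, from 0) against the library total behind RPKM (x axis, M reads) for the AAV8-TBG-CRE livers (left) and for the tumours and 4-OHT livers (right), coloured by group; each point is a library. The medians run from 83.3 to 115.1 RPKM on the left and from 14.2 to 24.2 on the right and are lower at larger totals.

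Calls were also counted among genes of like read density. Of the 719 genes with at least 0.5 reads per base in the AAV8 livers, 19.1% were called in MYC against WT livers and their median absolute log2 change was 0.215; among the 41 subunits of that density 0 were called by limma and the median absolute change was 0.0713. In MYC tumours 20.1% of 1217 such genes were called higher, against 2 of 55 subunits (3.64%). At 0.3 to 0.5 reads per base the order was the other way, with 5 of 12 subunits (41.7%) called higher in MYC tumours and 35.1% of 1545 genes. This split by density was chosen after the data were seen, and how far the dependence on the library total narrowed the changes of the subunits was not tested.

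Among the isoforms of complex IV in the tumours, Cox6b2 again separated the genotypes. It lay between 0.291 and 0.688 RPKM (median 0.374) in the 4-OHT livers, at 0, 1.75 and 0.359 in the MYC tumours and at 3.05, 2.55 and 2.68 in the MYC+Ex3 tumours. The MYC+Ex3 tumours lay above all other libraries of the arm, while the MYC tumours fell below, within and above the control range. The log2 change was 1.39 ± 0.23 in MYC+Ex3 tumours (adjusted p 0.000115) and 0.12 ± 0.23 in MYC tumours (adjusted p 0.686). MYC+Ex3 tumours exceeded MYC tumours by 1.27 ± 0.27 (adjusted p 0.0142), the single call of that comparison (1 higher, 0 lower; all genes: 2.02% and 2.1%), and this call was lost with a pseudocount of 0.1, in a fit of the tumours alone, and without MYC+Ex3 tumour replicate 1 or 3. Cox6b2 made up 2.08% ± 0.642 of the Cox6b RPKM in 4-OHT livers, 3.05% ± 4.01 in MYC tumours and 10.7% ± 2.35 in MYC+Ex3 tumours, with Cox6b1 at 20.4 ± 2.51, 24.9 ± 5.07 and 23.5 ± 3.40 RPKM and not called.

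Ndufa4l2, the isoform of Ndufa4 known to be induced by hypoxia, varied between tumours of the same genotype. It lay between 0.347 and 0.897 RPKM (median 0.658) in the 4-OHT livers, at 1.44, 1.151 and 5.21 in the MYC tumours and at 1.602, 0.766 and 16.3 in the MYC+Ex3 tumours. The MYC tumours lay above all controls without a call (log2 change 0.94, adjusted p 0.146), and MYC+Ex3 tumour replicate 2 fell within the control range. The called change of MYC+Ex3 tumours, 1.37 ± 0.52 (adjusted p 0.0333), rested on replicate 3: without it the change was 0.36 and did not pass, and the call was also lost without 4-OHT replicate 3. The call held in 4 of 8 other alternatives. It was lost with no filter, with depth and rescaling together, and against the S14 or the S15 controls alone. In the short-term livers Ndufa4l2 stood at 4.25, 0.70, 3.26, 1.71 and 2.14 RPKM in WT and at 0.791, 1.71, 0.71, 0.458 and 1.86 in MYC, groups that overlap (log2 change -0.64, adjusted p 0.118). Its exons overlap Shmt2 on the opposite strand.

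The remaining tissue isoforms were low. Cox4i2, the lung isoform of Cox4, did not reach the filter and was not tested, but its tumour values of 0.159, 0.229 and 0.79 RPKM (MYC) and 0.244, 0.17 and 0.288 (MYC+Ex3) all lay above the 0 to 0.0903 of the 4-OHT livers. Cox7a1, the heart and muscle isoform, lay between 1.37 and 3.67 RPKM in the 4-OHT livers and at 1.58, 0.549 and 1.42 in the MYC+Ex3 tumours, groups that overlap (log2 change -0.49, adjusted p 0.117), and was called lower there after rescaling. Cox6a2 and Cox8b, muscle isoforms of which Cox8b is also typical of brown fat, peaked among the 4-OHT livers in replicate 1, at 2.13 and 1.67 RPKM. That library also held the highest Cox7a1 (3.67 RPKM) and had 8 striated muscle markers summing to 35.1 RPKM, the highest of the 4-OHT livers (median 0.18). Its 4 brown fat markers summed to 16.2 RPKM (median 0.796), of which Elovl3 made up 15.6 and Ucp1 0.058. In WT replicate 1 of the AAV8 livers Cox8b stood at 5.63 RPKM beside brown fat markers of 206 RPKM, of which Elovl3 made up 194.2, Adipoq 9.95 and Ucp1 1.36. WT replicate 4 had a like sum (194.6, all from Elovl3) with Cox8b at 0.567, and Ex3 replicates 1 and 2 had sums of 196.2 and 187.4 with Cox8b at 0 and 0.455. Elovl3 also differed by sex in the WT livers, at 194.2 and 194.6 RPKM in those with Ddx3y and 1.91 to 13.6 in those with Xist. It was low in MYC replicate 4 (5.74) and MYC+Ex3 replicate 4 (2.19), which had Ddx3y. A sum made up mostly of Elovl3 is therefore not by itself a sign of brown fat. The part of muscle or fat cells in these isoform values was not tested.

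Genes that build and supply the chain were called in larger numbers than its subunits. The table held 92 genes of 8 lists (cytochrome c and coenzyme Q synthesis, assembly factors of the complexes, mitochondrial DNA and RNA machinery, nuclear regulators, and carriers, porins and cristae proteins). These lists include Cyc1 and Ndufab1, which also encode subunits but do not match the symbol rule. The contrast with the subunits is therefore not a strict one. In MYC against WT livers 27 of 89 tested were called higher and 2 lower, in MYC+Ex3 against WT livers 25 and 1, and in MYC+Ex3 against Ex3 livers 24 and 2. In the tumours 56 of 88 were called higher and 1 lower (MYC) and 58 and 3 (MYC+Ex3), with median log2 changes of 0.449 and 0.454. Ex3 alone, Ex3 added to MYC, and MYC+Ex3 against MYC tumours called 0 by limma. The shares of 30.3% and 63.6% higher in MYC livers and MYC tumours compare with 16.9% and 36.2% of all genes and with 2.53% and 11.4% of the subunits; no test of the difference between these lists was made. At 0.3 to 0.5 reads per base, 3 of 10 of these genes were called higher in MYC livers, against 1 of 22 subunits. In MYC tumours the shares at that density were closer, with 10 of 21 (47.6%) against 5 of 12 subunits (41.7%), while at 0.5 reads per base or more they were 5 of 9 and 2 of 55.

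**Figure D5:**
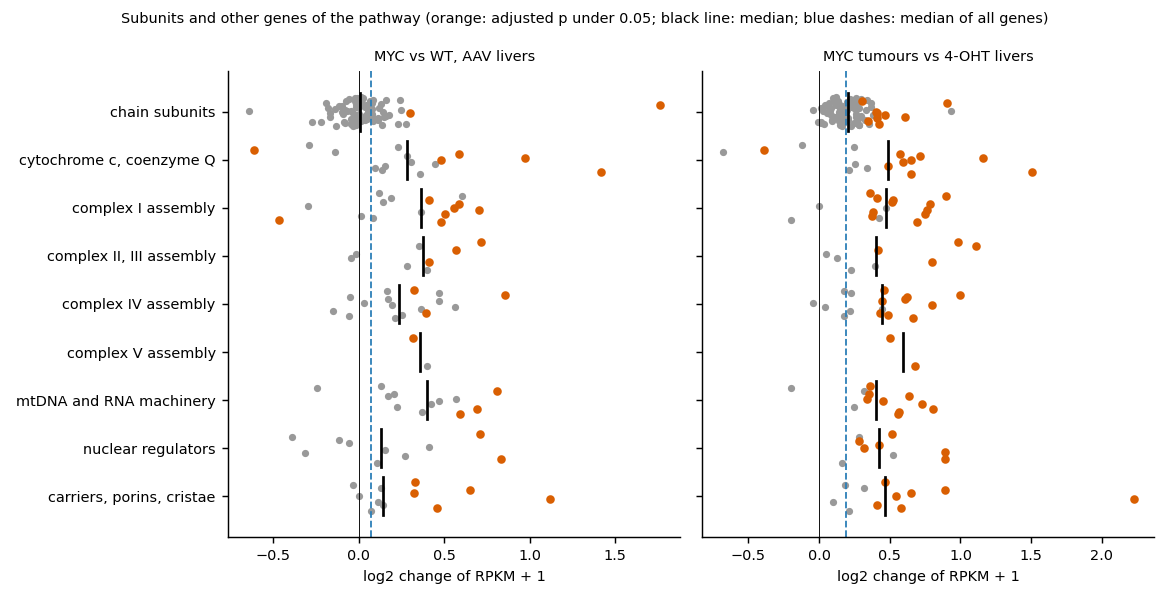
Log2 change of RPKM + 1 (x axes) of the respiratory chain subunits and of the genes of 8 further lists of the pathway (rows) in MYC against WT livers (left) and in MYC tumours against 4-OHT livers (right); each point is a gene, orange where the adjusted p is under 0.05, black lines are the medians of the lists and blue dashes the median of all genes. The median of the subunits is 0.004 on the left, where the 8 lists have medians of 0.129 to 0.396.

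Slc25a4, the adenine nucleotide carrier of heart and muscle that exchanges ADP for ATP, rose from 9.48 ± 1.44 RPKM in WT to 23.5 ± 12.5 in MYC livers (log2 change 1.12 ± 0.28, adjusted p 0.00589) and from 4.47 ± 1.08 RPKM in 4-OHT livers to 24.3 ± 2.17 in MYC tumours (2.23 ± 0.16, adjusted p 3.58e-07) and 27.1 ± 4.05 in MYC+Ex3 tumours. Pdss1, which makes the side chain of coenzyme Q, rose from 4.15 ± 0.724 to 13.6 ± 6.37 RPKM in MYC livers (1.42 ± 0.22, adjusted p 0.000119) and by 1.51 ± 0.11 and 1.59 ± 0.11 in the tumour groups. Cox10, which makes the haem of complex IV, rose from 8.04 ± 1.29 to 15.4 ± 2.84 RPKM in MYC livers (0.85 ± 0.16, adjusted p 0.000511) and by 1.00 ± 0.12 and 1.24 ± 0.12 in the tumours. In the same MYC livers Cox4i1 and Atp5b, subunits of the complexes these genes serve, were not called.

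Further rises on these lists came from genes of mitochondrial DNA and of regulation. In MYC livers Peo1, the mitochondrial DNA helicase, rose by 0.81 ± 0.12 (adjusted p 5.87e-05), Pprc1, a coactivator of respiratory genes, by 0.83 ± 0.24 (adjusted p 0.017) and Bcs1l, which inserts the iron-sulfur protein of complex III, by 0.71 ± 0.20 (adjusted p 0.0151). Ndufaf5, an assembly factor of complex I, rose by 0.70 ± 0.18 (adjusted p 0.00772) and Atpaf1, an assembly factor of complex V, by 0.32 ± 0.10 (adjusted p 0.0335). Tmem126b, another complex I assembly factor, fell by 0.47 ± 0.15 (adjusted p 0.0316), and Coq10a, a coenzyme Q binding protein, fell by 0.61 ± 0.20 (adjusted p 0.0311). On the lists other than those of Slc25a4, Pdss1 and Cox10, the largest called rises in the tumours were those of Ecsit (0.90 ± 0.23), Lyrm7 (1.11 ± 0.16), Atpaf2 (0.68 ± 0.12), Tfb1m (0.81 ± 0.16) and Ppargc1a (0.89 ± 0.21) for MYC, and of Ndufaf7 (0.91 ± 0.16), Bcs1l (0.83 ± 0.14), Atpaf2 (0.79 ± 0.12), Ssbp1 (0.72 ± 0.12) and Pprc1 (1.38 ± 0.16) for MYC+Ex3, where Ndufaf3 fell by 0.51 ± 0.14 and Cox16 fell by 0.25 ± 0.10.

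The authors' deposited table calls 0 of 78 subunits in MYC against WT livers, 0 of 76 in Ex3 against WT, 1 of 79 in MYC+Ex3 against WT and 1 of 78 in MYC+Ex3 against MYC, both Cox6b2, where 20.5%, 0.765%, 27.8% and 0.276% of all genes were called in either direction. For Cox6b2 the authors' deposited table gives a log2 change of 1.78 in MYC against WT livers with no adjusted p, so the call made there by limma has no counterpart. For the same gene the authors' deposited table gives log2 changes of 3.75 (adjusted p 4.81e-20) in MYC+Ex3 against WT livers, 1.05 (1.14e-05) against MYC livers and 2.37 (3.55e-12) in MYC+Ex3 tumours against 4-OHT livers, and 0.71 (0.475) between the tumour groups. In MYC tumours the authors' deposited table calls 4 subunits higher and 0 lower (all genes: 44.5%): Atp5s (1.14), Cox4i2 (2.06), Ndufa4l2 (1.52) and Ndufc1 (0.43). In MYC+Ex3 tumours the authors' deposited table calls 8 higher, with Ndufa4l2 at 2.58 and Atp5s at 1.28, and 4 lower, with Cox7a1 at -0.96 and Sdha at -0.23 (all genes: 60.7%). Between the tumour groups the authors' deposited table calls 0 of 78 subunits (all genes: 4.49%).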

How the data were processed

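Total RNA of 33 mouse samples was sequenced with a stranded kit, per the labels' protocols. Per the submitters' processing notes, the tools included TopHat2 2.0.8, featureCounts 1.4.5-p1, SAMtools and DESeq2, with build mm9; whether duplicates were removed is not given in the sources used here. The deposited values are RPKM per gene. The authors' deposited table also gives log2 fold changes and adjusted p-values of their comparisons, which were used only where named. 0 columns of other samples were present.

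The members and gene lists were chosen with earlier results of these data known. Genes with RPKM of at least 1 in at least 3 libraries of a fit were tested with limma 3.58.1 in R 4.3.3 on log2(RPKM + 1), letting the prior variance follow expression, with Benjamini-Hochberg adjustment over all genes of a comparison and calls at an adjusted p under 0.05. The 20 AAV8 livers and the 13 libraries of the tumour arm were fitted apart, in 9 comparisons. The test recovered known changes in simulated data. Reads behind RPKM were recovered as whole multiples of 1 read (100.0% of values within 0.01 reads) and used only to describe depth and counting error. Named subunits are on fixed lists of tissue isoforms and of catalytic and anchor subunits, or are in a comparison and complex the called gene with the largest change. Of the other genes of the pathway, the text names for each comparison those with the largest called rise and fall of a list. Alternatives were a pseudocount of 0.1, no filter or an RPKM of 5, median-ratio rescaling, the groups compared alone, a sex term, terms or subsets by skin keratins, subsets of control livers, and each library left out. Terms for the library total, and all alternatives for the other genes of the pathway, were added after seeing the data. Promoters are from RefSeq, and mm9 coordinates were not used.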

Additional observations from a re-analysis of the deposited data

Results flagged for a closer look

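A single library stood far from the rest of its group, by Dixon's criterion at the 95% level, in 12 of 210 pairs of a named or listed subunit gene and a group of 5 to 7 samples (5.71%); chance alone would give about 1 in 20. Among the AAV8 livers, Atp5g2 reached 136.4 RPKM and Sdhb 98.6 RPKM in Ex3 replicate 5, Ndufc1 reached 101.0 RPKM in MYC replicate 4, Cox7a1 10.2 RPKM in MYC+Ex3 replicate 5, Cox4i2 0.677 RPKM in MYC+Ex3 replicate 3 and Cox8b 5.63 RPKM in WT replicate 1, each above the rest. Cox4i1 at 152.3 RPKM and Sdhd at 152.8 RPKM in WT replicate 3, Cox6b2 at 2.23 RPKM in MYC replicate 5 and Cox6a2 at 0.25 RPKM in MYC replicate 2 lay below the rest. In the 4-OHT livers replicate 1 stood apart for Cox6a2 (2.13 RPKM) and Cox8b (1.67 RPKM), the library with the muscle markers given above.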

How the results depend on the processing

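The numbers of called subunits depended on the scaling and on the library total. In MYC against WT livers (2 called, both higher) the count was 1 with only the groups compared, 6 with a depth term (4 higher, 2 lower), 7 with depth and rescaling (2 higher, 5 lower), and 6 with a keratin term (4 higher, 2 lower). Of all genes, 1698 of 13273 were called higher and 363 lower with only the groups compared. Of 13688, the split was 2693 and 1112 with depth, 2201 and 1852 with depth and rescaling, and 2437 and 1150 with the keratin term. In MYC+Ex3 against WT livers (2) the subunit count was 1 after rescaling, 5 with a depth term (1 lower), 4 with depth and rescaling (1 lower), 4 with a keratin term (1 lower) and 5 in the libraries with keratins. All genes split into 2052 higher and 1302 lower after rescaling and 2812 and 1250 with depth. The split was 2430 and 1763 with depth and rescaling, 2934 and 1216 with the keratin term, and 1988 and 465 with keratins. In MYC+Ex3 against Ex3 livers (1) the subunit count was 2 with only the groups compared (1 lower), 3 with a depth term and 4 with depth and rescaling (2 lower). All genes split into 2506 higher and 1020 lower, 2608 and 1150, and 2316 and 1527, in that order. In MYC+Ex3 against MYC livers (1) the subunit count was 0 with a pseudocount of 0.1 and 0 in the libraries without keratins. All genes split into 11 higher and 0 lower, and 5 and 1. In MYC tumours (9) the subunit count was 2 after rescaling, 4 with a sex term, 36 with a depth term, 20 with depth and rescaling (9 lower), 1 against S14 controls and 5 against S15 controls. Of 11854 genes, 3212 were called higher and 2764 lower after rescaling, and 3727 and 1448 with the sex term. The split was 3147 and 1278 of 11742 against S14 controls, and 3359 and 909 of 11620 against S15 controls. In MYC+Ex3 tumours (13) the subunit count was 7 after rescaling (4 higher, 3 lower), 36 with a depth term, 21 with depth and rescaling (11 lower), and 3 against S14 controls. All genes split into 4018 higher and 3211 lower of 11854 after rescaling, and 4173 and 1877 of 11742 against S14 controls. The all-gene counts with the depth term, alone and with rescaling, are given above for both tumour groups. Between tumours (1) the subunit count was 0 with a pseudocount of 0.1, at an RPKM of 5 and with the tumours alone. All genes split into 199 higher and 314 lower, 111 and 129, and 42 and 28, in that order. The other pathway genes called went from 29 to 15 (groups compared) and 6 (libraries without keratins) in MYC against WT livers, from 26 to 13 (without keratins) and 16 (with keratins) in MYC+Ex3 against Ex3 livers, and from 0 to 1 (rescaling) and 3 (depth and rescaling) between tumours. All genes without keratins split into 946 higher and 303 lower in MYC against WT livers, and 1654 and 656 in MYC+Ex3 against Ex3 livers. The latter had 1406 and 262 with keratins. Between tumours the split was 302 and 281 with rescaling, and 491 and 505 with depth and rescaling. Leaving out each library gave 1 to 4 and 1 to 3 called subunits against WT in MYC and MYC+Ex3 livers, with WT replicate 5 deciding the lowest count in each and MYC replicate 5 the 4. It gave 1 (without tumour replicate 1) to 14 (without tumour replicate 2) in MYC tumours, 3 (without tumour replicate 3) to 16 in MYC+Ex3 tumours and 0 to 1 between tumours; for the other pathway genes it gave 16 (without MYC replicate 1) to 35 in MYC against WT livers and 0 to 1 between tumours. The counts also moved by over 1.5 times without 4-OHT replicate 4, 6 or 7 (both tumour groups), MYC tumour replicate 3 and MYC+Ex3 tumour replicate 2, and, for the other pathway genes, without MYC replicate 4. Fewer libraries or genes enter some of these fits; the cause was not tested otherwise. No called change of a named subunit changed sign under these alternatives; the medians over the subunits did, as given above, and so did the uncalled change of Cox6b2 in MYC tumours (-0.23 to 0.23). No paired analysis was possible because the replicate numbers follow the order of the records and the labels tie no library of one group to one of another. RPKM with few reads, as for Cox6b2, Cox4i2 and Cox8b, are limited by counting error.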
